A study of Saccharomyces cerevisiae with 10 samples.

Results

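Hsp90 and its cochaperones are described here by the mRNAs of 10 genes, chosen by name: the Hsp90 genes HSP82 (YPL240C) and HSC82 (YMR186W), and the 8 cochaperone genes STI1 (YOR027W), CPR6 (YLR216C), CPR7 (YJR032W), AHA1 (YDR214W), HCH1 (YNL281W), SBA1 (YKL117W), CDC37 (YDR168W) and CNS1 (YBR155W). All 10 were found among the 6717 yeast genes measured, and all 10 passed the filter on low values used for tests. The cells were Saccharomyces cerevisiae of the rpb1-1/caf1 mutant strain, in which the largest subunit of RNA polymerase II is temperature-sensitive and the gene for the deadenylase Caf1 is replaced by the HIS3 marker. The labels name the strain yJC1257 in one place and yJC244, the rpb1-1 strain, in another. Mid-log cultures were moved to the temperature that stops the polymerase and were harvested at once and after 3, 6, 8 and 10 min, then after 15, 20, 30, 45 and 60 min, with 1 library per time point, so that no value at a single time has a replicate error. The experiment was made to follow mRNA decay after transcription is shut off. Every library carries both mutations, and the rpb1-1 libraries were not analysed here, so no value speaks to the loss of Caf1. The shift is also a rise in temperature, and its effects on transcription, on heat-responsive genes and on decay cannot be told apart in these libraries.

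Hsp90 is an ATP-driven dimeric chaperone of the cytosol that acts late in folding, on proteins such as kinases and transcription factors, and yeast needs at least one of its 2 genes. HSC82 is the gene expressed at a high basal level, and HSP82 is the strongly heat-inducible one. Cochaperones set the pace of the cycle: Sti1 bridges Hsp70 and Hsp90 and holds the ATPase back, Aha1 and its short relative Hch1 stimulate the ATPase, Sba1 (the yeast p23) stabilises the closed form, Cdc37 brings kinases, Cpr6 and Cpr7 are cyclophilins with TPR domains, and Cns1 is an essential TPR cochaperone. Heat shock factor Hsf1 binds heat shock elements, inverted repeats of the block GAA, in front of many chaperone genes.

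In the R64 reference HSP82 lies on chromosome XVI from 96496 to 98625 (minus strand) and HSC82 on chromosome XIII from 632355 to 634472. STI1 is on chromosome XV (381053 to 382822), CPR6 on XII (572096 to 573211, minus strand), CPR7 on X (491081 to 492262), AHA1 on IV (892875 to 893927) and HCH1 on XIV (108467 to 108928). SBA1 is on chromosome XI (220324 to 220974), CNS1 on II (549771 to 550928) and CDC37 on IV (790328 to 791848), so the genes are scattered over the genome, and each has 1 coding exon.

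The sequence in front of the genes is shown first. It was not used in choosing the 10 genes, but that choice was made with earlier results of these data known. In the 500 bases before the start codon, an inverted pair of blocks (TTCNNGAA or GAANNTTC, each of which reads the same on both strands) was found in 8 of the 10 genes, all but CPR7 and CNS1, and in 35.1% of 5992 yeast genes. The stretches below are those in front of the 6 genes whose mRNAs were above the 0 min level at every later time. Each is written 5′ to 3′ on the coding strand, read from the RefSeq R64 genome, with the fixed letters of each pair in capitals. Not shown are further pairs nearer to or farther from the start codon, 1 each for HSP82 and HSC82 and 2 for AHA1, which make 2, 3 and 4 pairs in all.
HSP82 (chrXVI:98833-98880, minus strand): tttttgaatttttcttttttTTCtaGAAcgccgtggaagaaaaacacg
HSC82 (chrXIII:632118-632197, plus strand): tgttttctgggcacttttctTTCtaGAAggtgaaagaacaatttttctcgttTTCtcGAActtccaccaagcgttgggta
STI1 (chrXV:380791-380869, plus strand): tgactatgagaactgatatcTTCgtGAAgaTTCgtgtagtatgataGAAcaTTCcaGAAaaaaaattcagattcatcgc
CPR6 (chrXII:573293-573369, minus strand): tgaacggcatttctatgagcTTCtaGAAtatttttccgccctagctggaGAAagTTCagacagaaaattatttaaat
AHA1 (chrIV:892554-892606, plus strand): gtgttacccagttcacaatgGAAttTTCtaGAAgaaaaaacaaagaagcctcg
HCH1 (chrXIV:108281-108328, plus strand): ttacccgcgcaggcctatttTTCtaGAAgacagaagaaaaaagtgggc

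The stretch of HSP82 begins 255 bases before the start codon and that of HSC82 begins 237 bases before it. For STI1, CPR6, AHA1 and HCH1 the first base shown lies 262, 158, 321 and 186 bases before the start codon. Overlapping pairs that make 3 alternating blocks were found in STI1, at 2 places, and in AHA1, at 1 place, and in 1.49% of the 5992 genes. The exact letters TTCTAGAA occurred in front of HSP82, HSC82, CPR6, AHA1 and HCH1, against 2.09% of the 5992 genes, and this letter string was singled out after the matches were seen. SBA1 had 1 pair, 68 bases before the start codon, and CDC37 had 1 pair, 492 bases before it. The stress response element (AGGGG or CCCCT) was found in front of HSP82 and SBA1 and in 34.1% of the 5992 genes. A match describes letters only, and binding of Hsf1 was not measured.

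The values are FPKM, fragment numbers adjusted for the length of the mRNA and the depth of the library, as the authors deposited them. Each was divided by a factor from the ERCC spike-ins, RNAs added to the extracted RNA, which lay between 1 at 0 min and 1.42 at 60 min. The estimated depth was between 2321000 fragments, at 15 min, and 4945000, at 45 min. On this scale all yeast mRNA together had fallen to 52.6% of its 0 min value at 60 min. The spike-ins went into extracted RNA, so fewer cells and less RNA per cell cannot be told apart. The deleted CAF1, listed as POP2, did not exceed a scaled FPKM of 0.887 in any library. HIS3 (YOR202W), the name of the marker that replaces it, is listed at 0 in all 10 libraries. The paper's strain list gives this strain a his3 allele as well as the HIS3 marker. Which HIS3 sequence the marker holds is not given, and the listed 0 may also be a failed estimate. The value therefore does not decide on the genotype, and its cause was not tested.

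Levels of the 10 mRNAs took 3 courses, which the plot of levels over time shows. HSP82, STI1, CPR6, HSC82, HCH1 and AHA1 were higher in each of the 9 later libraries than at 0 min. Among the 5203 yeast genes whose FPKM at 0 min was 10 or more, 2.17% were. SBA1 and CDC37 stayed near their starting level, and CPR7 and CNS1 fell further than the median mRNA. At 60 min the median of the 10 genes was 1.85 times the 0 min level, against 0.352 times over the 5203 genes.

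**Figure D1:**
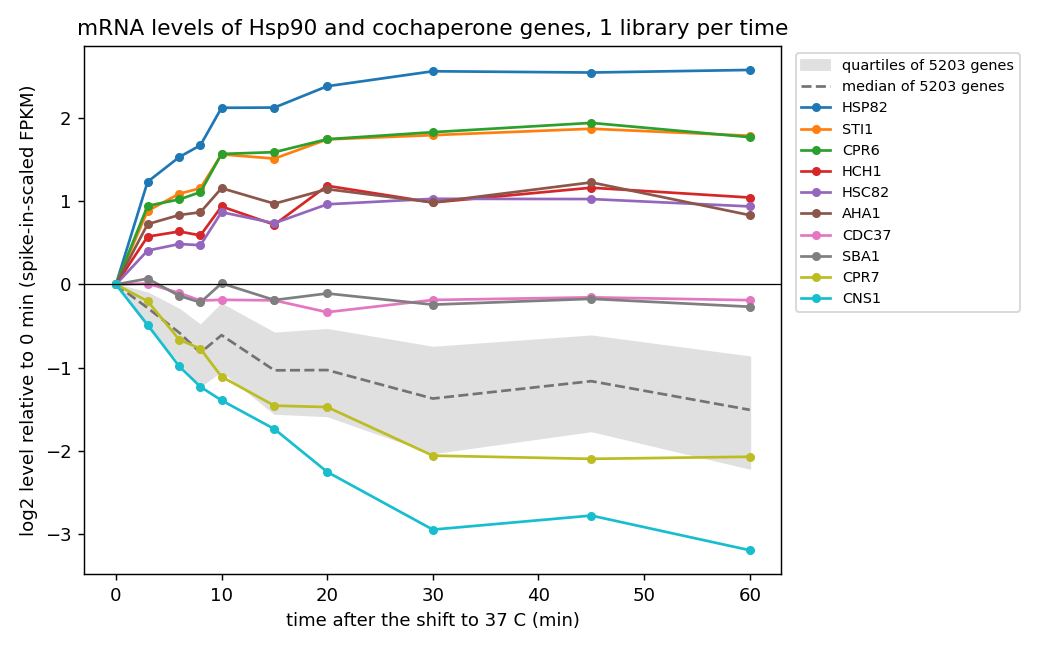
The log2 level relative to 0 min (vertical axis, spike-in-scaled FPKM) is plotted against the time after the temperature shift in min, with 1 point per library for each of the 10 genes. The dashed line is the median and the grey band the quartiles of 5203 genes. HSP82 ends at 2.58 and CNS1 at -3.19, while the median of the genes ends at -1.51.

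Of the pair of Hsp90 mRNAs, HSC82 was the more abundant at the start and HSP82 the more abundant in every later library. In the 5 libraries of the first 10 min, in time order, the spike-in-scaled FPKM of HSP82 was 750.5, 1766, 2170.0, 2394 and 3271. In the 5 libraries of 15, 20, 30, 45 and 60 min it was 3277, 3914, 4435, 4388 and 4483. That is 4.36 times the 0 min level at 10 min and 5.97 times at 60 min, with a 95% interval from counting alone of 5.82 to 6.14 at 60 min. Most of the increase, 67.5% of it, was thus present at 10 min. The 10 min library was high for genes in general. Over the 5203 genes the median level was 0.566 at 8 min, 0.656 at 10 min and 0.489 at 15 min. HSP82 itself stood at 3.19 at 8 min and 4.37 at 15 min. Of the 5203 genes, 99.9% had a lower level at 60 min relative to 0 min.

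The scaled FPKM of HSC82 was 1074, 1424, 1504, 1489.5 and 1962 over the same first 5 libraries, and 1789, 2094, 2192, 2188 and 2057 over the last 5. HSC82 therefore reached 1.92 times its starting level at 60 min (counting interval 1.87 to 1.96), and 90.3% of that increase was present at 10 min. Its level was 1.39 at 8 min and 1.67 at 15 min, so this percentage rests on the 10 min library. Together the Hsp90 mRNAs amounted to a scaled FPKM of 1824 at the start, 5232 after 10 min and 6541 after 60 min, a level of 3.59 times the start.

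The share of HSP82 in this sum was 41.1%, 55.4%, 59.1%, 61.6% and 62.5% in the libraries from 0 to 10 min, in time order. In those from 15 to 60 min it was 64.7%, 65.1%, 66.9%, 66.7% and 68.5%. As a share within a library it does not move with the spike-in factor, and it went up at every step but the one between 30 and 45 min. On the log2 scale the ratio of HSP82 to HSC82 was -0.52 at the start, 0.74 after 10 min and 1.12 after 60 min. The coding sequences of both genes are 92.4% identical over 2115 aligned bases, and 9.36% of the 2031 windows of 100 bases of HSP82 differ from HSC82 at no more than 2 positions. How the study's alignment divided reads that match both genes is not given in the sources used here, so the split between them is less certain than their sum.

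**Figure D2:**
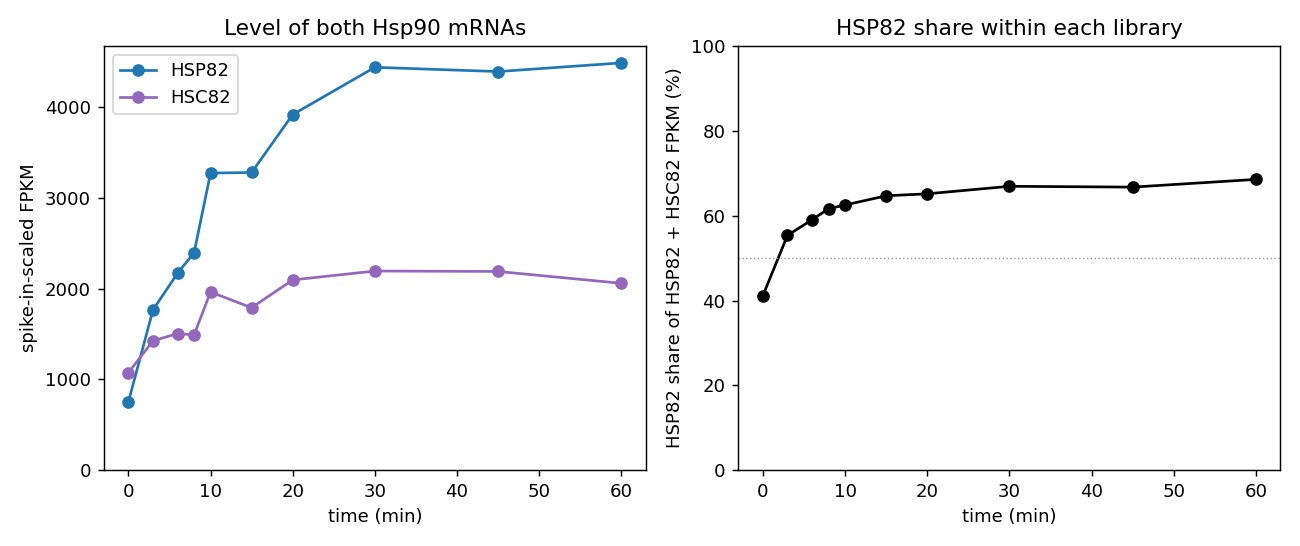
Left, the spike-in-scaled FPKM of HSP82 and HSC82 against time in min, 1 point per library. Right, the share of HSP82 in the summed FPKM of both genes, in percent, which starts at 41.1% and ends at 68.5% (dotted line, equal shares).

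STI1, the bridge between Hsp70 and Hsp90, and CPR6, a cyclophilin, followed nearly the same course as each other. In time order, the scaled FPKM of STI1 was 326.7, 603.1, 695.8, 728.5 and 966.2 from 0 to 10 min, and 932.7, 1094, 1134, 1196 and 1128 from 15 to 60 min. Its level relative to 0 min was 2.96 at 10 min and 3.45 at 60 min (counting interval 3.30 to 3.62). CPR6 had 180.6, 347.7, 366.8, 389.7 and 535.8 from 0 to 10 min, and 543.8, 605.7, 642.4, 693.9 and 616.1 from 15 to 60 min. The corresponding levels of CPR6 were 2.97 at 10 min and 3.41 at 60 min (counting interval 3.14 to 3.70). On the spike-in scale both mRNAs had their highest value at 45 min and their lowest at 0 min. The median level of the 5203 genes was also higher at 45 min (0.447) than at 30 min (0.387) or 60 min (0.352). As deposited, the highest FPKM was at 60 min, 1605 for STI1 and 876 for CPR6. At 60 min both mRNAs lay higher than 99.8% of the 5203 genes.

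The mRNAs of the ATPase activators AHA1 and HCH1 gained less than those of STI1 and CPR6. From 0 to 10 min the scaled FPKM of AHA1 was 175.3, 289.7, 312.6, 319.9 and 391.0, and its values from 15 to 60 min lay between 312.2 and 410.3. Its highest value was at 45 min, and its level was 2.23 at 10 min and 1.78 at 60 min (counting interval 1.63 to 1.95). HCH1 had 239.8, 357.3, 372.8, 360.9 and 459.2 from 0 to 10 min, and between 394.6 and 545.7 from 15 to 60 min. Its level was 1.92 at 10 min and 2.06 at 60 min (counting interval 1.80 to 2.36), close to that of HSC82. HCH1 has a coding sequence of only 462 bases, which makes its FPKM less dependable than that of the longer genes.

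SBA1 and CDC37, the p23 cochaperone and the kinase-specific adaptor, were flat on the spike-in scale while the median mRNA fell. SBA1 started at a scaled FPKM of 354.1 and had 357.6 after 10 min and 294.2 after 60 min, with a range from 294.2 to 371.8 over all libraries. CDC37 started at 91.9 and had 80.9 after 10 min and 80.7 after 60 min, with a range from 73.0 to 92.7. Their levels at 60 min were 0.831 (counting interval 0.751 to 0.919) and 0.877 (counting interval 0.782 to 0.985), and 90.7% and 91.9% of the 5203 genes had a lower one. With equal total FPKM per library in place of spike-ins, the slopes of SBA1 (0.10 per 10 min, adjusted p = 0.0122 in limma) and CDC37 (0.12, adjusted p = 0.0119) were upward.

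CPR7, the second cyclophilin, and CNS1 were the least abundant of the 10 mRNAs, and both were below their 0 min level in every later library. The scaled FPKM of CPR7, in time order, was 39.4, 34.3, 24.9, 23.1 and 18.3 from 0 to 10 min, and 14.4, 14.2, 9.47, 9.22 and 9.38 from 15 to 60 min. CNS1 had 45.4, 32.5, 23.0, 19.4 and 17.3 from 0 to 10 min, and 13.6, 9.53, 5.90, 6.63 and 4.97 from 15 to 60 min. At 60 min CPR7 stood at 0.238 of its starting level (counting interval 0.177 to 0.321) and CNS1 at 0.109 (counting interval 0.0744 to 0.160). These last values rest on an estimated 59.0 and 30.5 fragments. From 30 min on the values of CPR7 lay within each other's counting intervals. CNS1 at 60 min lay above only 6.59% of the 5203 genes, and CPR7 above 29.4% of them.

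Half-lives were fitted to an exponential decay that starts at 1 at 0 min, and a fit was accepted up to a mean absolute residual of 0.14 and a half-life of 60 min. Of the 10 mRNAs, 2 gave an accepted half-life. CNS1 had a half-life of 7.50 min (SE 0.677 min) and CPR7 one of 12.2 min (SE 1.53 min). The fit was accepted for 49.5% of 6198 yeast genes, with a median of 15.5 min and quartiles of 8.86 and 27.0 min. SBA1 and CDC37 had fitted half-lives above the limit, and for the other 6 mRNAs the net level rose, so that no half-life could be fitted. A line fitted to the logarithm of the level lengthened the half-lives to 20.2 min for CNS1 and 29.2 min for CPR7.

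**Figure D3:**
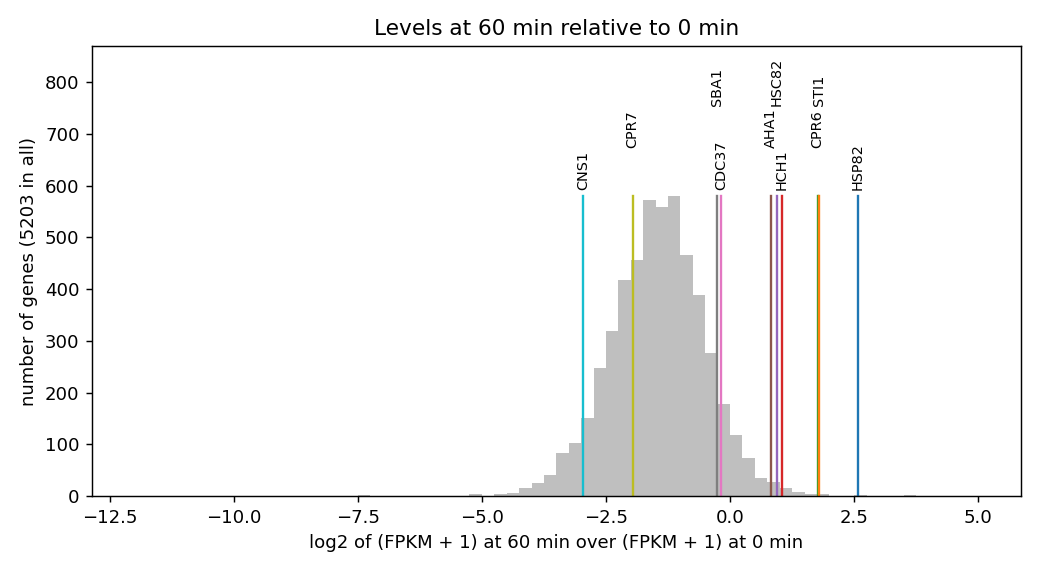
Distribution over 5203 yeast genes of the log2 ratio of FPKM + 1 at 60 min to that at 0 min (horizontal axis, spike-in-scaled), as the number of genes per bin of 0.25. Vertical lines mark the 10 genes: HSP82, CPR6 and STI1 lie at the far right, and HCH1, HSC82 and AHA1 also lie right of zero. SBA1 (-0.27) and CDC37 (-0.19) lie just left of zero, CPR7 (-1.96) and CNS1 (-2.96) farther left among the genes that fell.

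Slopes over time were tested with limma on log2(FPKM + 1) of the scaled values, in one fit over 6045 genes with Benjamini-Hochberg adjustment and a threshold of 0.05. Over the whole course 5 of the 10 mRNAs rose, against 1.6% of the 6045 genes, and 2 fell, against 52.8% of them. HSP82 rose by 0.30 per 10 min (SE 0.090, adjusted p = 0.0163), CPR6 by 0.21 (SE 0.070, adjusted p = 0.0241) and STI1 by 0.21 (SE 0.069, adjusted p = 0.0241). HCH1 rose by 0.13 (SE 0.049, adjusted p = 0.0467) and HSC82 by 0.13 (SE 0.047, adjusted p = 0.0393), both close to the threshold. CNS1 fell by 0.46 per 10 min (SE 0.073, adjusted p = 0.000953) and CPR7 fell by 0.32 (SE 0.063, adjusted p = 0.00202). AHA1 (slope 0.073), CDC37 (-0.021) and SBA1 (-0.039) did not pass, with adjusted p of 0.282, 0.603 and 0.323. With time as log2(min + 1) AHA1 passed too (adjusted p = 0.00896). Without the 45 min library HSP82 was the only one of the 10 that rose, and without the library of 0, 3, 6, 8 or 30 min HSP82, STI1 and CPR6 rose.

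**Figure D4:**
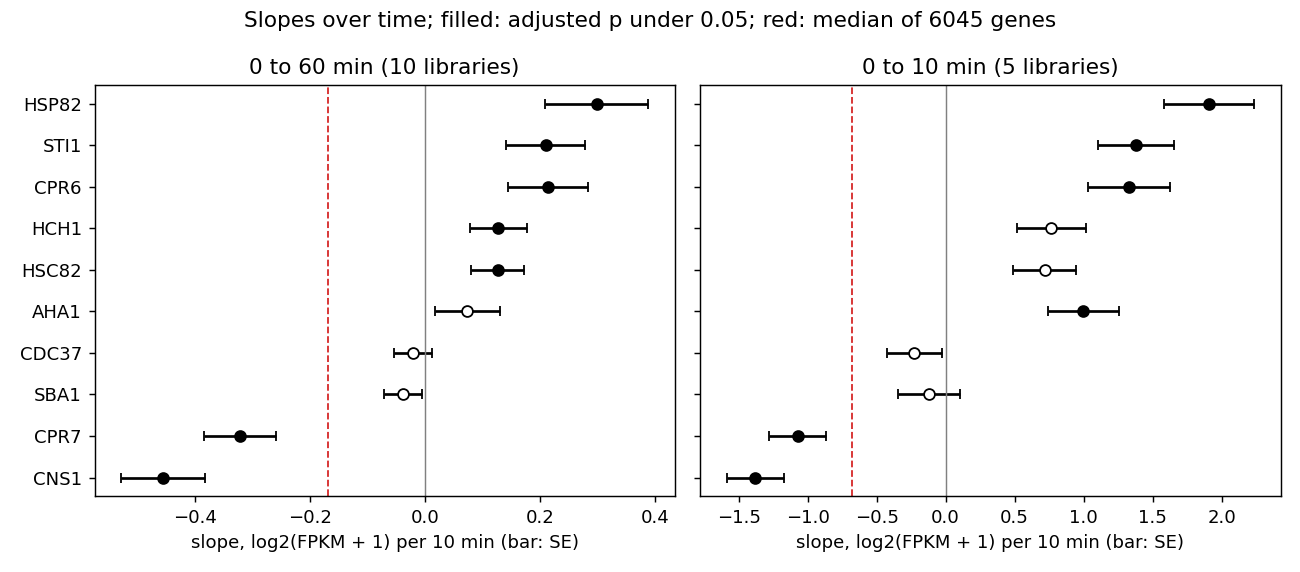
Fitted slope of log2(FPKM + 1) per 10 min with its SE for each of the 10 genes, over all 10 libraries (left) and over the 5 libraries of 0 to 10 min (right), on axes of different scale. Filled points passed an adjusted p of 0.05, and the dashed line is the median slope of 6045 genes, -0.17 on the left and -0.68 on the right.

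Within the first 10 min the slopes were several times steeper. HSP82 rose by 1.91 per 10 min (SE 0.33, adjusted p = 0.023), STI1 by 1.38 (SE 0.27, adjusted p = 0.0271), CPR6 by 1.33 (SE 0.30, adjusted p = 0.0312) and AHA1 by 1.00 (SE 0.26, adjusted p = 0.0397). These 4 compare with 1.69% of the 6045 genes that rose. CNS1 fell by 1.38 (SE 0.21, adjusted p = 0.0211) and CPR7 fell by 1.07 (SE 0.21, adjusted p = 0.026), while 27.4% of the 6045 genes fell. HSC82 (slope 0.72, adjusted p = 0.0613) and HCH1 (0.76, adjusted p = 0.0636) missed the threshold, although both were above 0 min in every later library, and both passed as deposited and with each of the other scalings. With 5 libraries these calls are fragile: without the library of 0, 3 or 8 min no gene of any kind passed, and without that of 10 min HSP82 and STI1 alone of the 10 rose. From 15 to 60 min none of the 10 and 0% of the 6045 genes passed limma's test, also with a trend of the variance, although 16.3% of the genes and CNS1 had an unadjusted p under 0.05. The late slope of CNS1 was -0.24 per 10 min (SE 0.075, adjusted p = 0.30).

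The step between 8 and 10 min depends on the scaling. HSP82 was 1.37 times and CPR6 1.38 times higher at 10 than at 8 min on the spike-in scale, against 1.14 and 1.15 times in the FPKM as deposited. The median of 5190 genes moved by 1.18 and 0.987 times over the same step. As deposited, the FPKM of HSP82, HSC82, STI1, CPR6 and AHA1 was higher in each library than in the one before, at all 7 steps from 0 to 30 min. From 30 to 45 min it fell for HSP82 (6014 to 5378) and HSC82 (2973 to 2682). It also fell for STI1 (1538 to 1466) and CPR6 (871 to 851), while AHA1 rose (471 to 503).

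Set against the summed Hsp90 mRNAs of the same library, which needs no spike-in factor, the cochaperones parted. STI1 held a level of 17.9 FPKM per 100 FPKM of Hsp90 at 0 min, 18.5 at 10 min and 17.3 at 60 min, and CPR6 held 9.90, 10.2 and 9.42. Over all libraries STI1 stayed between 17.1 and 18.9 and CPR6 between 9.42 and 10.9, although the sum itself changed 3.59 times. AHA1 had 9.61 per 100 at 0 min, 7.47 at 10 min and 4.77 at 60 min, and HCH1 had 13.1, 8.78 and 7.56. SBA1 declined most among the abundant ones, with 19.4 per 100 at the start, 6.83 after 10 min and 4.50 after 60 min. CDC37 had 5.04, 1.55 and 1.23 at these times, CPR7 2.16, 0.349 and 0.143, and CNS1 2.49, 0.331 and 0.0759. SBA1 was thus the most abundant cochaperone mRNA at 0 min, just above STI1, and STI1 the most abundant in every later library.

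**Figure D5:**
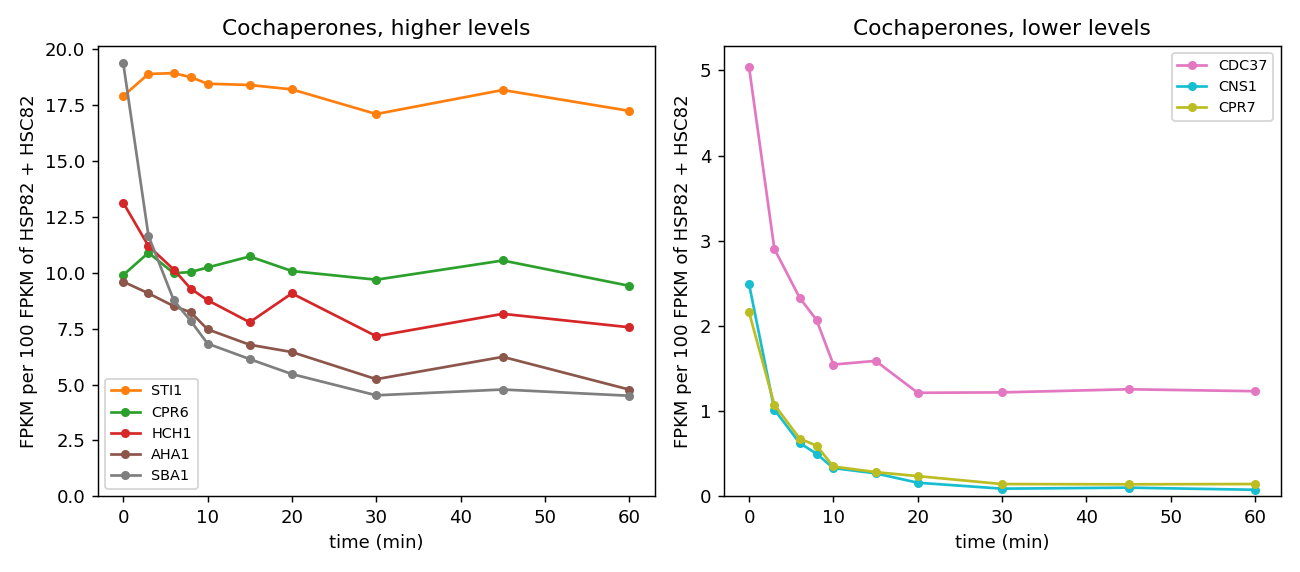
FPKM of each cochaperone mRNA per 100 FPKM of HSP82 and HSC82 together, by time in min, 1 point per library. STI1 and CPR6 run nearly level, at 17.1 to 18.9 and 9.42 to 10.9. All 8 end below their 0 min value, STI1 and CPR6 by the least.

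The other scalings shifted all genes together. The median level of the 5203 genes at 60 min was 0.352 with the spike-in sum, 0.501 as deposited, 0.669 with equal total FPKM and 1.87 with equal ribosomal protein FPKM. Relative to this median, which cancels the scaling, the level of HSP82 at 60 min was 17.0 times as high, and those of STI1, CPR6, HCH1, HSC82 and AHA1 were 9.81, 9.70, 5.86, 5.45 and 5.06 times as high. CDC37 stood at 2.49, SBA1 at 2.36, CPR7 at 0.676 and CNS1 at 0.311 times the median. The fall of CPR7 held on the spike-in scale, as deposited and with equal total FPKM, but with equal ribosomal protein FPKM its level at 60 min was 1.26. On that last scale 3483 genes rose over 0 to 60 min and 142 fell, and of the 10 genes 8 rose and 0 fell. The filter on low values was applied anew on each scale, so the genes tested need not be the 6045 of the spike-in scale. With equal total FPKM 721 genes rose and 1504 fell, 8 and 2 of the 10 among them, compared with 97 and 3189 on the spike-in scale.

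Codon content was compared because the study concerns codon optimality. Counted were 9 codons found only in an oligo of the study's OPT reporter and 9 found only in one of its NON-OPT reporter. The study itself scored each transcript with published definitions of codon optimality, a different measure. Between 48 (HCH1) and 294 (HSP82) codons were counted per gene. The share of OPT codons among those counted was 85.4% in HSP82, 86.6% in HSC82, 68.0% in SBA1 and 67.0% in STI1. It was 64.1% in CPR6, 63.2% in AHA1 and 62.5% in HCH1. CPR7 had 57.4%, CNS1 55.2% and CDC37 50.6%, against a median of 52.3% over 5871 genes. CPR7 and CNS1, which fell, had a lower share than the 6 that stayed above 0 min. Both still lay above the median, with 67.55% and 61.2% of the 5871 genes lower. The lowest share belonged to CDC37, which stayed near its starting level. A link between codon share and level was not tested.

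The yeast genes whose levels were most like those of HSP82 over the 9 later libraries were found by the root mean square difference of the log2 level relative to 0 min, among 5155 genes. They were HSP78 (0.27), a mitochondrial disaggregase, HSP26 (0.36), a small heat shock protein, HSP104 (0.43), the cytosolic disaggregase, HSP30 (0.52), a membrane protein, and EGO4 (0.54). CPR6 (0.60) and STI1 (0.61) followed in places 7 and 8. Nearest to HSC82 was SSE1 (0.090), the Hsp110 nucleotide exchange factor of Hsp70, followed by ATH1 (0.11), RTS3 (0.11), GDB1 (0.11) and YPS6 (0.13), with HCH1 (0.13) in place 6. HSC82 came in place 54 for HSP82, and HSP82 in place 1071 for HSC82.

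Other genes of the pathway were taken as 3 lists. Of 7 further cochaperones and subunits of the R2TP complex, which acts with Hsp90 in assembly, 5 fell and 0 rose over 0 to 60 min, where 52.8% of the 6045 genes fell and 1.6% rose, with a median slope of -0.24 per 10 min against -0.17 over the 6045 genes. The largest falls were those of PPT1, the Hsp90 phosphatase (-0.57, adjusted p = 0.000717), RVB1 (-0.37, adjusted p = 0.0022) and TAH1 (-0.34, adjusted p = 0.00599). None of these 7 was above its 0 min level at 60 min, and 5.69% of the 5203 genes were. Of 8 Hsp90 clients and regulators, 3 fell and 0 rose, a smaller share of falls than the 52.8% over all genes, SWE1 (-0.26), HAP1 (-0.19) and CDC28 (-0.17) by the largest slopes. HSF1, singled out after its values were seen because it encodes the heat shock factor, stood at 0.612 of its 0 min level at 10 min and 0.588 at 60 min. Over the 5203 genes the median level was 0.656 at 10 min and 0.352 at 60 min. The limma slope of HSF1 over 0 to 60 min, -0.015 per 10 min, did not pass (adjusted p = 0.841).

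The Hsp70 partners act on clients before Hsp90. Of 9 such genes, 2 rose over 0 to 60 min, SSA3 (slope 0.57 per 10 min, adjusted p = 0.00203) and SSE1 (0.13, adjusted p = 0.0227), and SIS1, a J-protein, fell (-0.15, adjusted p = 0.0281). Over all 6045 genes 1.6% rose and 52.8% fell. Over 0 to 10 min 6 of the 9 rose and 0 fell, against 1.69% and 27.4% of the 6045 genes. Their median level was 2.31 at 10 min and 1.59 at 60 min. SSA4, a heat-inducible Hsp70 singled out after its values were seen, reached 23.9 times its 0 min level at 10 min and 23.7 times at 60 min. SSA1, SSA2, SSA3 and SSA4, all among those that rose over 0 to 10 min, have close relatives between which reads may be split. How far this bears on their separate calls was not tested.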

How the data were processed

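RNA of the rpb1-1/caf1 mutant was measured at 10 time points, 1 library each. Per the labels and methods, paired reads were mapped to SacCer2 by the authors using Bowtie 0.12.7, and the deposited FPKM values came from Cufflinks 1.3.0 and carry no spike-in scaling. The file has gene names only. By systematic name, 6025 of the 6717 yeast genes had a match in RefSeq R64, and coordinates and sequences are of R64, not of the build of the alignment. The labels mention a biological duplicate, which was not used here.

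The spike-in factor of a library was its sum of spike-in FPKM over that at 0 min, and every FPKM was divided by it. Of 92 spike-ins, 73 were detected and 30 reached an FPKM of 10 in all libraries. Fragment numbers were estimated from steps between low FPKM values (85.7% to 95.1% of them within 0.1 of a whole fragment). The 95% intervals are from a normal approximation to the log ratio of these numbers and cover counting error only.

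Slopes of log2(FPKM + 1), a pseudocount of 1, were tested in R 4.3.3 with limma 3.58.1 over 6045 genes with a mean scaled FPKM of at least 1. A p-value here measures the scatter of single libraries around a line, not that between cultures. On simulated data for 6045 genes with 200 changed by 2 on the log2 scale, 99.5% of changed genes were recovered over 0 to 60 min, 100% over 0 to 10 min and 100% over 15 to 60 min, with 1.97%, 8.26% and 2.91% of calls false. The simulation had no shift common to the genes of a library, so these rates do not carry over to the real data. Half-lives used Python 3.11.15 with numpy 2.4.6.

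The 10 genes and the lists were chosen with earlier results of these data known. Named are the 10 genes, up to 3 genes per list and direction with the largest slope past the threshold over 0 to 60 min, and the 5 genes most like HSP82 and HSC82 among those with a scaled FPKM of at least 10 at 0 min and above 0 in every library. CAF1 (POP2) and HIS3 were looked at as a check of the strain. The alternatives were other scalings, pseudocounts, filters, time scales and decay fits, and leaving out each time point. A variance trend in limma was chosen after seeing the data.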

Additional observations from a re-analysis of the deposited data

How the results depend on the processing

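No paired analysis was made, with 1 library per time point used here and the rpb1-1 libraries not analysed. For the number of the 10 genes that rose over 0 to 60 min, 5 in the text, equal total FPKM gave 8 and equal ribosomal protein FPKM gave 8, since AHA1, SBA1 and CDC37 then also passed; with a time point left out it was between 1 and 5. The number that fell, 2, was 0 with equal ribosomal protein FPKM and 2 without any one time point. Over 0 to 10 min the number that rose, 4, was 2 with no filter on low values and between 0 and 3 without one time point, and the number that fell, 2, was 1 with equal ribosomal protein FPKM and between 0 and 2 without one time point. Slopes over 0 to 60 min turned round with equal ribosomal protein FPKM for CPR7 (0.059 per 10 min, which did not pass), SBA1 (0.36) and CDC37 (0.38), with equal total FPKM for SBA1 (0.10) and CDC37 (0.12), and in sign alone, without passing, as deposited for SBA1 (0.027) and CDC37 (0.045). Of 480 alternative slopes of the 10 genes, 418 kept their call, 40 lost it, 17 gained it and 5 turned round with a call on at least one side; HSC82 and HCH1 passed over 0 to 10 min as deposited and with the other scalings. With the starting level left free the half-life of CPR7 was 14.3 min, and it was 29.2 min by a line through the logarithm, 10.7 min over 0 to 20 min, 17.3 min as deposited, 23.0 min with equal total FPKM and 172 min with equal ribosomal protein FPKM, and that of CNS1 8.24, 20.2, 7.20, 9.34, 10.7 and 20.3 min. Without one time point they lay between 11.5 and 13.2 min for CPR7 and between 7.20 and 7.87 min for CNS1. Depth limits CNS1 and CPR7 most. The causes of these shifts were not tested.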
